A study of Mus musculus with 8 samples.

Results

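The embryonic globins and the genes that build the first red cells of the mouse were followed in 8 whole embryos at embryonic day 8.5 (E8.5), each hybridised to its own Agilent SurePrint G3 one-colour array. The 8 member genes were the globins *Hbb-y*, *Hbb-bh1*, *Hba-x* and *Hba-a1*, the haem enzyme *Alas2*, the transcription factors *Gata1* and *Klf1*, and the erythropoietin receptor *Epor*. They were taken out of 20660 gene symbols as every non-control probe whose RefSeq accession belongs to 1 of them, which gave 9 probes, 2 of them for *Hbb-y* and 1 for each other gene. All embryos were heterozygous for Eedl7Rn5-1989SB, a hypomorphic allele of the gene for EED, a core subunit of the histone methyltransferase complex PRC2, on a C57bl6/129 background, and all had wild-type mothers. Homozygous males (HOM father, *Eed* hypo/hypo) had sired 4 of them and heterozygous males (HET father, *Eed* hypo/wt) the other 4. Each group held 2 female and 2 male embryos. The question was whether embryos of the same genotype differ in expression with the genotype of the father. Every control therefore carried the allele too, and the design holds no embryo without it. The study used fewer sires than there were embryos in a group, so some embryos of a group had the same father, and the files do not say which. The arrays of each group lay on a slide of their own, so slide and father cannot be told apart.

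The first red cells arise in the blood islands of the yolk sac and enter the circulation as large nucleated cells, the primitive erythroid lineage, at about the stage sampled here. Each haemoglobin molecule joins α-like and β-like globin chains around haem. Primitive cells use the ζ-like chain of *Hba-x* with the adult α chains of *Hba-a1* and *Hba-a2*, and pair them with the ε-like chain of *Hbb-y* and the β-like chain of *Hbb-bh1*. ALAS2 carries out the first and rate-limiting step of haem synthesis in red cells, GATA1 and KLF1 are DNA-binding activators of globin, haem and membrane genes, and EPOR receives the erythropoietin signal for survival and growth.

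Both activators have short, well known recognition letters, GATAA for GATA1 and CACCC for KLF1, and CCAAT is a common promoter element. The stretches of 250 bases upstream of the listed start of transcription were taken from the RefSeq promoter table of build GRCm38.p6, which held 7 of the 8 genes. They are shown for *Hbb-y*, whose signal did not follow the other members, for *Hba-x* and *Hba-a1*, in which the father groups did not overlap, and for *Klf1*, which had the largest fitted difference. Capitals mark these motifs on either strand, so GATAA may read as TTATC, the motif CACCC as GGGTG, and the motif CCAAT as ATTGG. No match of one motif overlapped a match of another. *Hbb-y* lies at chr7:103853208-103853457 on the minus strand, *Hba-x* at chr11:32276350-32276599 on the plus strand, *Hba-a1* at chr11:32283422-32283671 on the plus strand and *Klf1* at chr8:84901732-84901981 on the plus strand.
*Hbb-y*: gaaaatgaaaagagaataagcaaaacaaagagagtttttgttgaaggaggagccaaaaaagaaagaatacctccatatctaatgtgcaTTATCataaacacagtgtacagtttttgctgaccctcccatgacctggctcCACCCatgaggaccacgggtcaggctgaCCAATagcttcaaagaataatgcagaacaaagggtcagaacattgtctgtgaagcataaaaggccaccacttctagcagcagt
*Hba-x*: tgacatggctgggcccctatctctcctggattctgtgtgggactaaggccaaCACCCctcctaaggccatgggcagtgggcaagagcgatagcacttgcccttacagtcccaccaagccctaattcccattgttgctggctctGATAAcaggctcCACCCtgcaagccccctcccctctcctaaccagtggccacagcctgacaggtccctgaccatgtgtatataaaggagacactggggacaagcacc
*Hba-a1*: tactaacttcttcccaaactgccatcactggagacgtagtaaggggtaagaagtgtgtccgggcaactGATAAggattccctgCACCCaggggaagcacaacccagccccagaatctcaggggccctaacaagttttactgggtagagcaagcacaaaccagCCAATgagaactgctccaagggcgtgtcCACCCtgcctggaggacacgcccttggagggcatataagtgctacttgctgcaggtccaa
*Klf1*: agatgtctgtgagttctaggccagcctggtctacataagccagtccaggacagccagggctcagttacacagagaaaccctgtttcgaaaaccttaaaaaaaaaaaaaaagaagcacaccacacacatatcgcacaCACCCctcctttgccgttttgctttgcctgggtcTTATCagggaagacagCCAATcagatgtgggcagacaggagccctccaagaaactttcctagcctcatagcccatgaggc

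The 2 α-like globin promoters and the *Klf1* promoter each hold both GATAA and CACCC, and so does that of *Hbb-y*, with its single GATAA match starting 162 bases and its single CACCC match 111 bases before the listed start. Over the 7 member promoters, GATAA was found in 6 (85.7%) and CACCC in 7, against 22.6% and 52.0% of 32851 promoters in the table. Both motifs were present in 6 of the 7, against 10.1% of all promoters. *Gata1* was the member with no GATAA match in this window. In 61 promoters of the wider erythroid lists described further on, both motifs were present in 29.5%. These motifs were chosen for their known use in erythroid genes, and a match is only a description of the letters.

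Signal is given as log2 of the processed intensity minus the 75th percentile of that array, so that 0 is the 75th percentile and 1 unit is a factor of 2. Between 51.8% and 60.8% of spots were well above background on each array, and no spot was saturated. Every one of the 9 member probes stood well above background on each of the 8 arrays and was tested. The array of HOM father replicate 3 was the lowest of the 8 for 7 of the 9 member probes, while it held 54.6% of spots well above background, inside the range of the others. Values without it are therefore also given for the members it moved most.

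**Figure D1:**
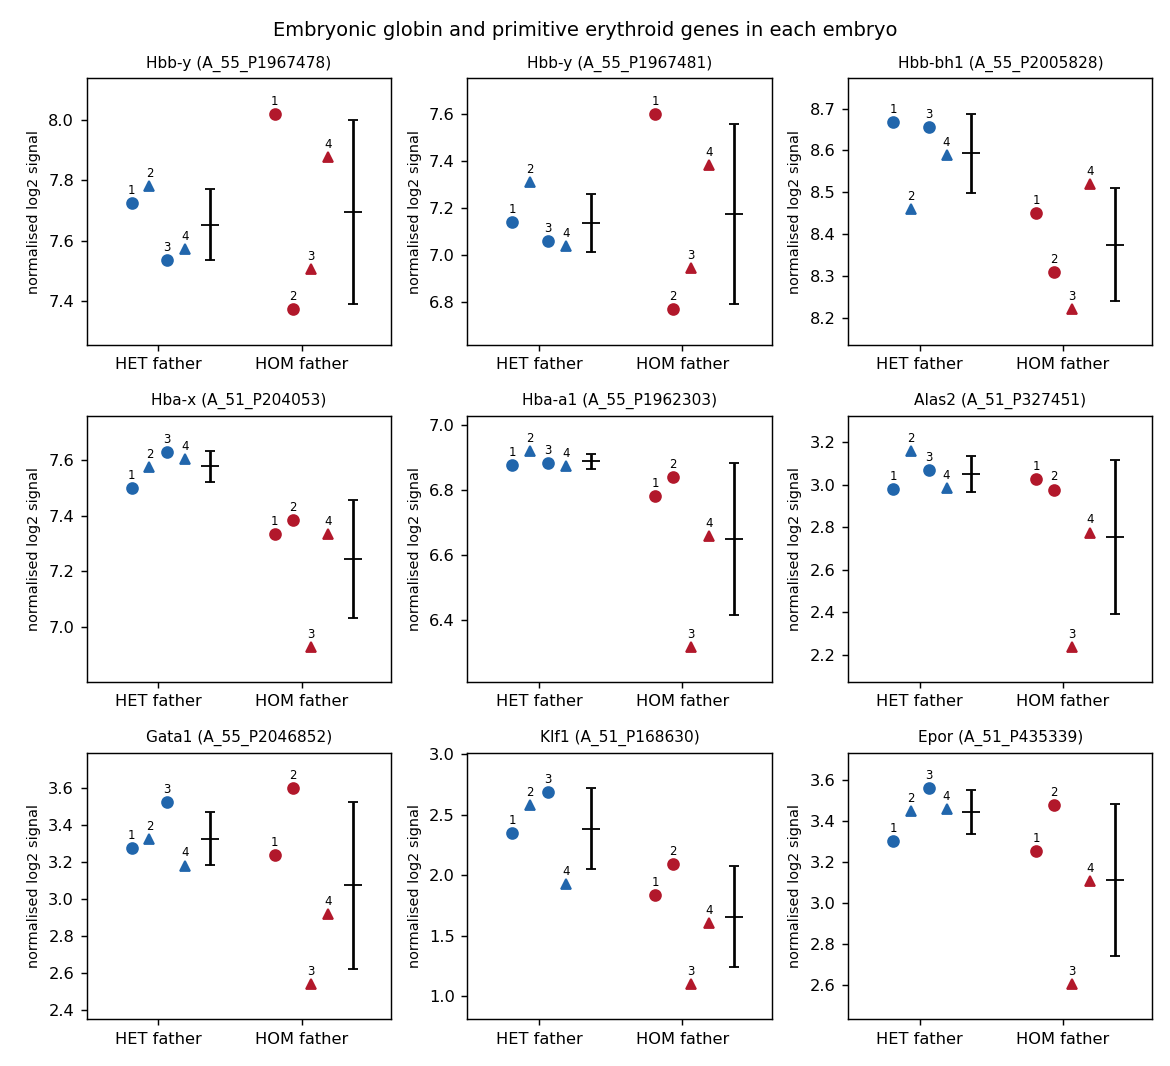
Normalised log2 signal of the 9 member probes in each of 8 embryos, with HET father embryos in blue and HOM father embryos in red, circles for females and triangles for males, replicate numbers beside the points, and the mean with SD (n = 4) as a black bar. The vertical scale differs between panels. HOM father replicate 3 is the lowest point in 7 of the 9 panels, and the groups do not overlap for *Hba-x* and *Hba-a1*.

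None of the 8 genes passed the test for a difference by father. No member probe reached an adjusted p below 0.01 with a change of at least 2-fold, a rule that called 1.27% of 29718 tested probes, and none reached an adjusted p below 0.05 without a fold limit, which 21.0% of all tested probes did (limma, Benjamini-Hochberg). At an unadjusted p below 0.05 there were 3 member probes, *Hbb-bh1*, *Hba-x* and *Klf1*, against 34.8% of all tested probes. The fitted difference was negative, lower with a HOM father, for 7 of the 9 probes, against 54.1% of all tested probes, and both positive values were the *Hbb-y* probes. The median difference over the 9 probes was −0.25, against −0.02 over all tested probes, and −0.13 without HOM father replicate 3. Every HOM father embryo lay below every HET father embryo for 2 of the 9 probes, against 13.0% of all probes, and no member showed the opposite arrangement (14.1%). In whole embryos, fewer red cells and less RNA per red cell cannot be told apart.

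Among the β-like globins, *Hbb-y* had the same mean in both groups within its spread. Probe A_55_P1967478 gave 8.02, 7.37, 7.51 and 7.88 in HOM father replicates 1 to 4 and 7.73, 7.78, 7.54 and 7.57 in HET father replicates 1 to 4. The HOM father group held both the highest and the lowest of the 8 values. The group means were 7.69 ± 0.30 and 7.65 ± 0.12 (SD, n = 4), a difference of 0.04 with a 95% interval from −0.30 to 0.38 (limma, adjusted p = 0.877). The second probe, A_55_P1967481, ranged from 6.77 to 7.60 with a HOM father and from 7.04 to 7.31 with a HET father, with a difference of 0.04 (limma, adjusted p = 0.911). The deviations of these probes from the group means moved together over the 8 arrays (r = 0.986), so the spread between embryos was seen by both probes. Since the difference was near 0, its sign was not stable and turned negative when arrays were scaled to their median.

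*Hbb-bh1*, the other embryonic β-like globin, was measured at 8.45, 8.31, 8.22 and 8.52 in HOM father replicates 1 to 4. In HET father replicates 1 to 4 it was 8.67, 8.46, 8.65 and 8.59. HET father replicates 1, 3 and 4 stood above all HOM father embryos, and HET father replicate 2 fell among them. The difference was −0.22, with a 95% interval from −0.41 to −0.03, or 1.16-fold lower (limma, adjusted p = 0.0998). It passed at an adjusted p of 0.0482 under quantile normalisation. Under 17 of 19 alternatives it did not pass, with adjusted p up to 0.338 (limma).

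Both α-like genes separated the groups without passing the test. *Hba-x*, the embryonic ζ-like chain, was at 7.33, 7.38, 6.93 and 7.34 in HOM father replicates 1 to 4. It was at 7.50, 7.58, 7.63 and 7.60 in HET father replicates 1 to 4. No value overlapped, HET father embryos lay within a narrow band, and HOM father replicate 3 lay clearly below the other embryos of its group. The means were 7.25 ± 0.21 and 7.58 ± 0.056 (SD, n = 4), and the difference of −0.33 had a 95% interval from −0.57 to −0.09, or 1.26-fold lower (limma, adjusted p = 0.0575). Without HOM father replicate 3 the difference was smaller at −0.23, yet passed with an adjusted p of 0.0346, as did 15.1% of all tested probes. It also passed with the intensity trend and robust variance (0.0356) and among probes well above background on all 8 arrays (0.0489). Under 15 of 19 alternatives *Hba-x* did not pass, with adjusted p up to 0.188 (limma).

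*Hba-a1*, an adult-type α chain that is also made in primitive cells, was at 6.78, 6.84, 6.32 and 6.66 in HOM father replicates 1 to 4. The HET father embryos lay at 6.88, 6.92, 6.88 and 6.87. The HET father values lay close together, while the HOM father values again had replicate 3 at the bottom. The difference was −0.24, with a 95% interval from −0.49 to 0.02 (limma, adjusted p = 0.166), and it was −0.13 without that embryo. *Hba-a1* and *Hba-a2* are nearly identical copies and the probe sequences were not used here, so signal from the pair cannot be told apart. The probe listed for *Hba-a2* showed the same arrangement, at 7.92, 7.99, 7.68 and 8.07 against 8.11, 8.15, 8.15 and 8.13, with no overlap and a difference of −0.22 (limma, adjusted p = 0.100), or −0.14 without HOM father replicate 3.

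*Alas2*, the red cell form of the haem enzyme, was at 3.02, 2.98, 2.24 and 2.77 in HOM father replicates 1 to 4 and at 2.98, 3.16, 3.07 and 2.99 in HET father replicates 1 to 4. Replicates 1 and 2 of the HOM father group were level with the HET father embryos, and replicate 3 was far below. The difference was −0.29, with a 95% interval from −0.68 to 0.09 (limma, adjusted p = 0.252), and −0.12 without replicate 3.

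Of the transcription factors, *Gata1* was at 3.24, 3.60, 2.54 and 2.92 with a HOM father. It was at 3.27, 3.32, 3.52 and 3.18 with a HET father. HOM father replicate 2 was the highest embryo of all and replicate 3 the lowest. The difference was −0.25, with a 95% interval from −0.74 to 0.24 (limma, adjusted p = 0.443). It was −0.07 without HOM father replicate 3 and −0.43 without HOM father replicate 2.

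*Klf1*, which activates the adult and embryonic globins in the mouse, had the largest fitted difference of the members. It was at 1.83, 2.09, 1.10 and 1.60 in HOM father replicates 1 to 4. In HET father replicates 1 to 4 it was at 2.35, 2.58, 2.68 and 1.92. The groups overlapped through HET father replicate 4, which lay below HOM father replicate 2. The means were 1.66 ± 0.42 and 2.38 ± 0.34 (SD, n = 4), a difference of −0.73 with a 95% interval from −1.28 to −0.17, or 1.65-fold lower (limma, adjusted p = 0.0689). It passed with sex as a covariate (0.0434), without HOM father replicate 2 (0.0435) and without HET father replicate 4 (0.0469). Without HOM father replicate 3 the difference was −0.54 and did not pass. Under 15 of 19 alternatives *Klf1* did not pass, with adjusted p up to 0.207 (limma).

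*Epor* was at 3.25, 3.47, 2.61 and 3.10 with a HOM father and at 3.30, 3.45, 3.56 and 3.46 with a HET father. Here too HOM father replicate 2 lay among the HET father embryos and replicate 3 lay apart below. The difference was −0.33, with a 95% interval from −0.73 to 0.07 (limma, adjusted p = 0.217), and −0.16 without replicate 3. The probe of *Epo*, the gene of its ligand, rose well above background on none of the arrays.

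The scaling of the arrays bore on these calls. When each array was scaled to its median instead of its 75th percentile, *Hbb-bh1*, *Hba-x*, *Hba-a1* and *Klf1* passed at an adjusted p of 0.0131, 0.0115, 0.0288 and 0.0219. The same scaling moved the median over all tested probes to −0.21 and raised the share of probes passing to 42.7%. Relative to the median of all tested probes, which takes out any shift of a whole array, the median member difference was −0.23 as reported, −0.11 without HOM father replicate 3 and −0.35 without HOM father replicate 2.

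The spread between embryos was wider with a HOM father for all 9 member probes, against 53.5% of all tested probes. This was not particular to the members. It held for 65 of 92 tested probes of the wider erythroid lists described further on (70.7%). Among markers of other cells it held for 8 of 9 endothelial and 8 of 10 embryo proper probes. It also held for 7 of 10 yolk sac endoderm and 5 of 6 megakaryocyte and macrophage probes, but for 3 of 9 trophoblast probes. The median SD of the member probes was 0.36 in the HOM father group and 0.11 in the HET father group, whereas over all tested probes these were 0.12 and 0.11. Without HOM father replicate 3, an alternative chosen after the values were seen, the median SD of the HOM father group was 0.19. Still, 7 of the 9 probes had the wider spread there, against 51.5% of all tested probes. The array of HOM father replicate 3 was the lowest of 8 for 15.8% of all tested probes and for 7 of the 9 member probes. The difference in spread was not tested, and the members were chosen with earlier results of these data known.

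**Figure D2:**
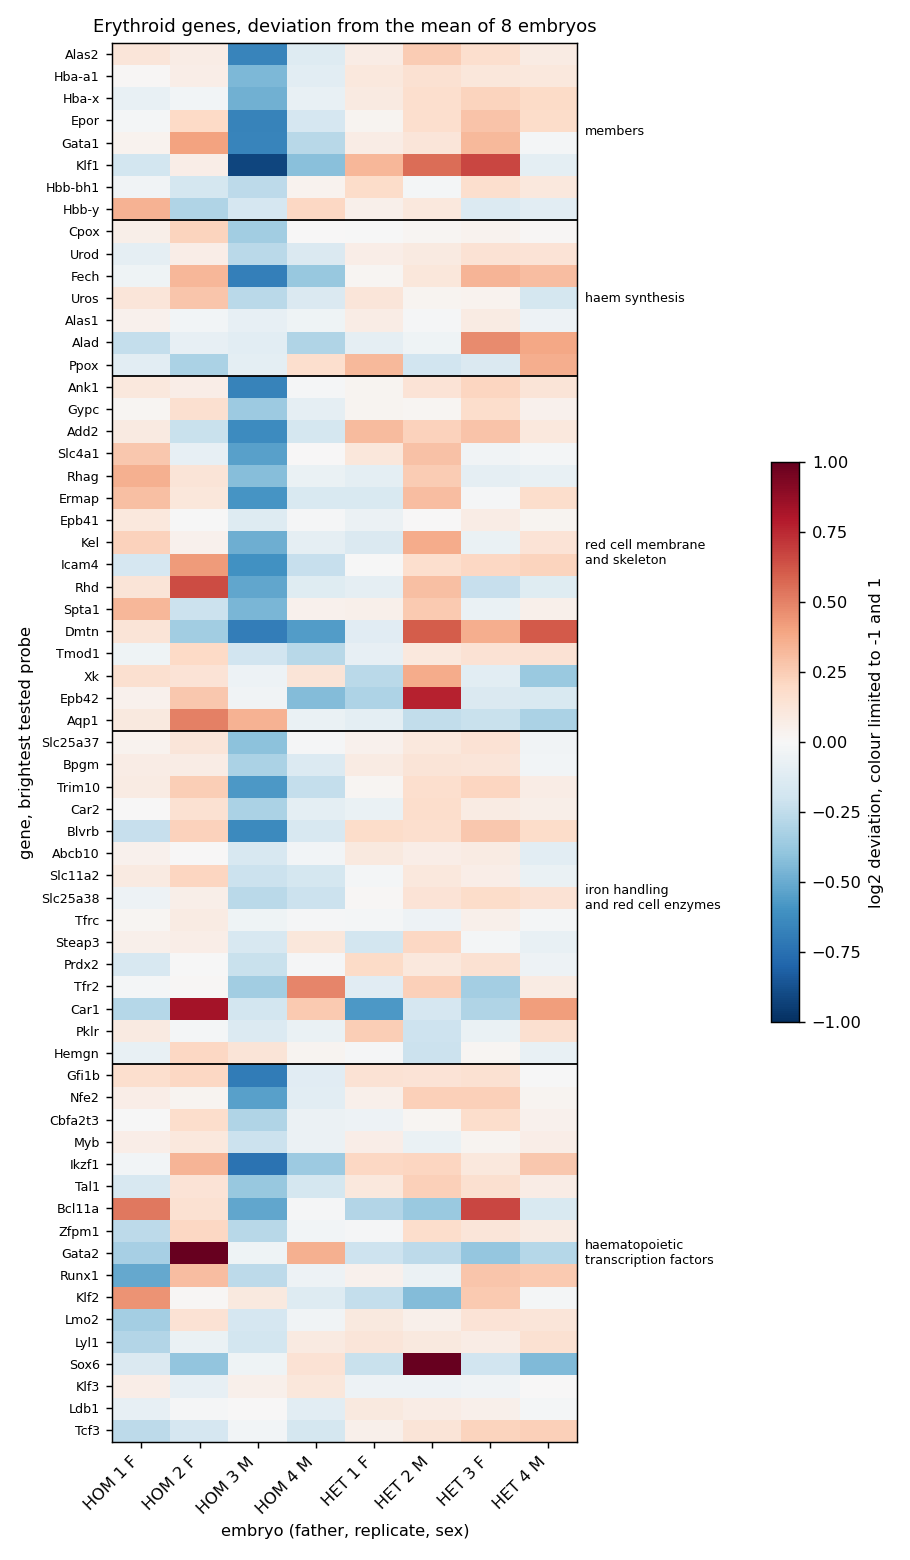
Deviation of the log2 signal from the mean of all 8 embryos, by gene (rows, brightest tested probe, in 5 groups ordered by likeness to the member profile) and embryo (columns, by father, replicate number and sex), with the colour scale ending at −1 and 1. The column of HOM father replicate 3 is blue for most erythroid genes, while *Aqp1* is above its mean there and *Hbb-y* is lowest in HOM father replicate 2.

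Member genes also varied together from embryo to embryo. After the mean of each father group was removed, the 15 pairs among *Hba-x*, *Hba-a1*, *Alas2*, *Gata1*, *Klf1* and *Epor* had r between 0.71 and 0.98 over 8 arrays, and between 0.25 and 0.88 without HOM father replicate 3. The 12 pairs that joined *Hbb-y* or *Hbb-bh1* to those 6 genes had r between −0.13 and 0.53, and none was above 0 without that embryo, with a highest value of −0.0019. *Hbb-y* with *Hbb-bh1* had r = 0.51, or 0.38 without that embryo. In these embryos the 2 β-like embryonic globins varied less closely with those 6 genes than the 6 did among themselves. The division into 6 and 2 genes was not planned and describes the same values. The points share their arrays, and these correlations are a description with no test.

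No member passed the test by sex. Female minus male, with father as a covariate, gave no adjusted p below 0.05 among the 9 probes, against 0.121% of all tested probes, and 1 unadjusted p below 0.05, against 5.22% (limma). That 1 was *Gata1*, an X-linked gene, at 3.41 ± 0.18 in females and 2.99 ± 0.34 in males (SD over 4 embryos of both father groups), a difference of 0.42 with a 95% interval from 0.04 to 0.80 (limma, adjusted p = 0.914). Fitted values were higher in females for 7 of the 9 probes, against 15843 of all 29718 tested probes and 66 of 92 in the wider erythroid lists. The lowest embryo, HOM father replicate 3, was male. No father by sex interaction passed (0.0639% of all tested probes did), and none had an unadjusted p below 0.05, against 4.52% (limma), with 2 embryos in each cell of that comparison. In the wider lists the genes with the lowest p by sex were *Hbb-bh2*, *Uros*, *Bcl11a*, *Cish*, *Gypc* and *Bpgm*, higher in females by a fitted 0.32, 0.28, 0.52, 0.30, 0.19 and 0.18, and among the markers they were *Kdr* at −0.20, *Gp9* at 0.34, *Amn* at 0.18, *Ascl2* at 0.85 and *Meox1* at 0.25. The lowest adjusted p among all these was 0.850 (limma).

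Wider erythroid genes were taken from 6 lists of globins, haem synthesis, haematopoietic transcription factors, Epo and Kit signalling, red cell membrane and skeleton, and iron handling and red cell enzymes. Of their 92 tested probes, 3 were higher and 8 lower with a HOM father at an adjusted p below 0.05, or 3.26% and 8.70%, beside 12.3% and 8.69% of all tested probes. None passed the rule with a 2-fold limit. The median difference was −0.15. Median scaling changed the split to 28 lower and 1 higher, and quantile normalisation to 9 lower and 1 higher. The array of HOM father replicate 3 was the lowest for 52 of the 92 probes (56.5%).

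**Figure D3:**
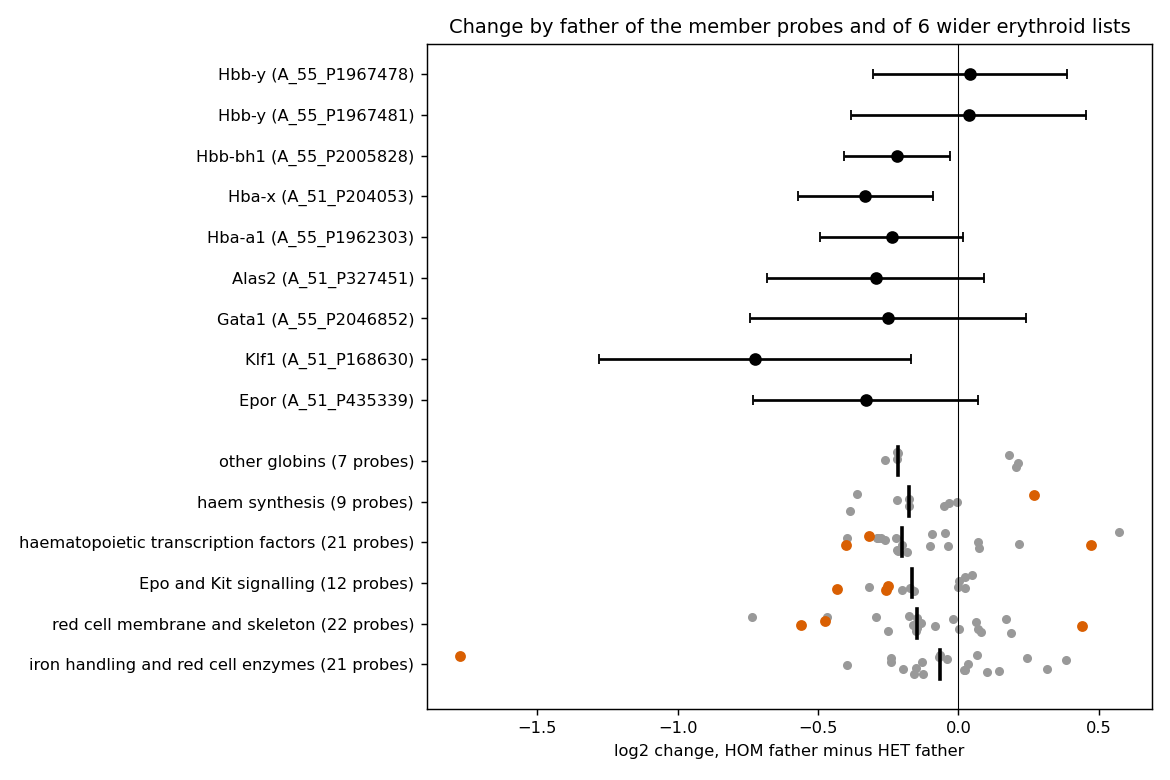
Log2 difference by father, HOM minus HET. Black points with bars are the 9 member probes with 95% intervals, and the rows beneath show every tested probe of the 6 wider erythroid lists, orange where the adjusted p was below 0.05, with a black line at the list median. The members' intervals reach across 0 for 6 of the 9 probes, and list medians lie between −0.22 and −0.07.

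The other globins showed 3 patterns. Of 7 tested probes none passed by father, with an unadjusted p below 0.05 for 2 (*Hba-a2* and *Hbb-b2*), and their median was −0.22. *Hbb-b2*, an adult β chain, was at 0.96, 0.83, 0.65 and 0.95 with a HOM father and held within 0.64 to 0.69 with a HET father, a difference of 0.18 (limma, adjusted p = 0.128). It went to −0.01 under median scaling (adjusted p = 0.929) and passed without HOM father replicate 3 (adjusted p = 0.0288). *Hbb-bt*, an adult β chain, fell into high and low embryos in both groups. Its signal was 3.14, 2.05, 2.63 and 2.99 in HOM father replicates 1 to 4 and 3.01, 1.95, 2.91 and 2.12 in HET father replicates 1 to 4. The low embryos were HOM father replicate 2 and HET father replicates 2 and 4, and HOM father replicate 3 lay between. *Hbb-bs*, whose sequence is close to that of *Hbb-bt*, had the same 3 embryos at its bottom, at −0.91, −0.96 and −1.09, with the others between −0.81 and −0.41. *Hbb-bh2* was lowest in HOM father replicate 3, at −4.01. The adult β chains are similar in sequence, and signal from one on the probe of another cannot be told apart here.

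**Figure D4:**
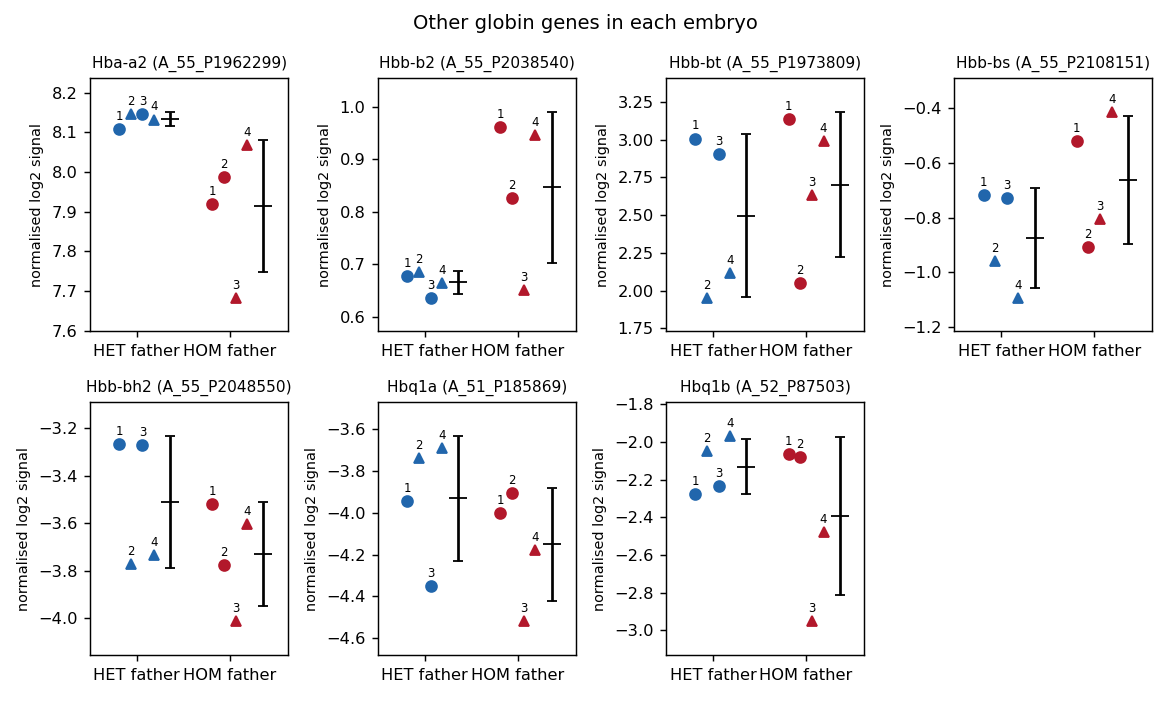
Normalised log2 signal of the 7 other tested globin probes in each embryo, with the same colours, symbols, replicate numbers and error bars (SD, n = 4) as in the plot of the member probes, and a vertical scale of its own in each panel. *Hba-a2* is lower in all HOM father embryos, and *Hbb-bt* shows embryos near 3 and embryos near 2 in both groups.

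Among haem synthesis genes, 1 of 9 probes was higher (11.1%, against 12.3% of all tested probes) and none lower (8.69%). It was *Alas1*, the form of the enzyme used outside red cells, with a difference of 0.27 on its dimmer probe (limma, adjusted p = 0.0317) and −0.05 on the brighter. It kept that call without HOM father replicate 3 or HET father replicate 1 but lost it without any other single embryo (adjusted p = 0.0537 to 0.0788, limma). *Fech*, which inserts iron into the ring, was at 3.24 in HOM father replicate 3 and 3.54 to 4.25 in the other 7 embryos, with a difference of −0.39 (limma, adjusted p = 0.226). *Urod* and *Alad*, enzymes of the middle of the pathway, had differences of −0.22 and −0.36 that did not pass. The list median was −0.18.

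Of 21 probes of haematopoietic transcription factors, 2 were lower (9.52%, against 8.69% of all tested probes) and 1 higher (4.76%, against 12.3%). Both lower probes were of *Tcf3*, the E protein that joins TAL1 and LMO2 in the erythroid complex, with differences of −0.32 and −0.40 (limma, adjusted p = 0.0155 and 0.00493). The higher probe was 1 of 2 tested for *Cbfa2t3*, a corepressor, at 0.47 (limma, adjusted p = 0.00469), while its brighter probe gave −0.09. *Tal1*, *Lyl1* and *Lmo2* had differences of −0.29, −0.22 and −0.20 that did not pass. *Gata2*, used by progenitors before *Gata1*, was at −0.38, 1.13, −0.10 and 0.30 with a HOM father and between −0.43 and −0.26 with a HET father, with no call (limma, adjusted p = 0.207). *Tcf3* was lower in each HOM father embryo, and replicate 3 was the highest of that group for both probes, unlike most members.

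For Epo and Kit signalling, 3 of 12 probes were lower (25%, against 8.69% of all tested probes) and none higher (12.3%). *Kit*, the stem cell factor receptor, had a difference of −0.25 (limma, adjusted p = 0.0194), and *Pim1*, a kinase induced by STAT5, of −0.43 (limma, adjusted p = 0.0419). A probe of *Stat5b* had a difference of −0.26 (limma, adjusted p = 0.0152), and its brighter probe 0.02. The *Kit* call was lost without HOM father replicate 1 or 4 (adjusted p = 0.0537 and 0.0514) and that of *Pim1* without HOM father replicate 2, 3 or 4 or HET father replicate 3 or 4 (0.0747 to 0.101). *Kitl* and *Sh2b3*, the ligand of KIT and an inhibitor of the receptor's signal, had −0.32 and −0.20 without passing.

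For the red cell membrane and skeleton, 2 of 22 probes were lower (9.09%, against 8.69% of all tested probes) and 1 higher (4.55%, against 12.3%). *Aqp1*, a water channel also found outside red cells, was higher by 0.44 (limma, adjusted p = 0.0432). A lower probe was the dimmest of 3 for *Epb41*, at −0.56 (limma, adjusted p = 0.0310), with −0.02 on the brightest. *Dmtn* and *Add2*, which bind actin and spectrin, came close, at −0.74 and −0.47 (limma, adjusted p = 0.0517 and 0.0535). The calls of *Aqp1* and *Epb41* did not hold when most single embryos were left out. That of *Aqp1* was lost without any embryo but HOM father replicate 4 (limma, adjusted p = 0.0581 to 0.104). That of *Epb41* was lost without any embryo but HOM father replicate 4 or HET father replicate 3 (limma, adjusted p = 0.0523 to 0.0775). The array of HOM father replicate 3 was the lowest for 16 of these 22 probes.

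Among iron handling genes and red cell enzymes, 1 of 21 probes was lower (4.76%, against 8.69% of all tested probes) and none higher (12.3%). It was the dimmer of 2 probes for *Slc25a37*, the mitochondrial iron importer, at −1.78 (limma, adjusted p = 0.0284), and the brighter gave −0.13 (adjusted p = 0.470). The call was lost without any embryo but HOM father replicate 1 or HET father replicate 1 (highest adjusted p = 0.0705, limma). *Blvrb*, *Slc25a38* and *Prdx2* had differences of −0.40, −0.24 and −0.20, and *Hemgn*, a nuclear protein of red cell precursors, 0.15. None of these 4 passed.

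Markers of the other cells that a whole embryo can hold were read from 5 lists, of which the endothelial one had no probe that passed by father. Lower probes made up 10% of the yolk sac endoderm, 20% of the embryo proper and 11.1% of the trophoblast list, beside 8.69% of all tested probes. Higher probes made up 11.1% of the trophoblast and 33.3% of the megakaryocyte and macrophage list, beside 12.3%. The defining markers of yolk sac endoderm (8 of 8 genes) and of the embryo proper (8 of 8) were well above background on at least 1 array, as were 6 of 7 trophoblast genes, *Tpbpa* being the one that was not. The summed signal of 10 yolk sac endoderm probes, in multiples of the array's 75th percentile, was 480 to 604 with a HOM father and 544 to 581 with a HET father, and it was lowest in HOM father replicate 3. *Apoa1* was the 1 of these 10 probes to pass, at −0.41 (limma, adjusted p = 0.0139). *Amn*, *Ttr* and *Afp*, further products of that endoderm, had differences of −0.19, −0.16 and −0.12 that did not pass. The summed endothelial signal of 9 probes was 51.7 to 63.0 against 58.5 to 61.4, with HOM father replicate 3 at 61.3, and the lowest adjusted p was 0.0695 for the dimmer of 2 *Kdr* probes (limma, difference 0.32, with −0.04 on the brighter), ahead of 0.0918 for *Pecam1* (difference 0.22), with −0.11, −0.08 and −0.10 for *Egfl7*, *Flt1* and *Tie1*. The summed signal of 10 embryo proper probes was 28.0 to 29.7 against 29.5 to 33.0, with replicate 3 the highest of the HOM father embryos, and 2 probes passed, *Tbx6* at −0.32 and *Myl7* at −0.25 (limma, adjusted p = 0.0359 and 0.0408), while *Pax6* and *Meox1* stood at −0.21 and 0.13. *Tbx6* lost its call without any embryo but HOM father replicate 2 (adjusted p = 0.0557 to 0.0910, limma) and *Myl7* without any embryo but HOM father replicate 3 (0.0538 to 0.102).

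The 9 trophoblast probes summed to 17.9 to 48.2 against 31.2 to 49.1, with *Prl3b1* higher by 1.28, or 2.42-fold, and *Gcm1* lower by 1.07 (limma, adjusted p = 0.000415 and 0.0217). The *Gcm1* call was lost without HOM father replicate 1, 3 or 4 or HET father replicate 3 (adjusted p = 0.0545 to 0.0573). *Prl3d1* and *Prl8a2*, placental hormones, had differences of 1.88 and 2.97 without passing, and *Prl8a2* ranged from −3.99 to 4.45 over the embryos. In the list of megakaryocytes and macrophages, both tested probes of *Csf1r*, the macrophage growth factor receptor, were higher by 0.77 and 0.43 (limma, adjusted p = 0.000438 and 0.00892), while *Ptprc*, found on white blood cells, and *Ppbp*, of platelets, stayed near background on every array. *Gp1bb*, *Gp9* and *Itga2b*, of megakaryocytes, did not pass, at −0.42, −0.12 and 0.05. That list summed to 2.89 to 3.48 against 2.42 to 2.57. Both *Csf1r* probes are counted in that sum and were its brightest, and no other probe in it passed. The summed member signal ran from 824 (replicate 3) to 1105 (replicate 1) with a HOM father and from 1050 to 1091 with a HET father. That sum is mostly globin signal and counts *Hbb-y* through both of its probes. Those *Hbb-y* probes were lowest in HOM father replicate 2, at 7.37 and 6.77, so replicate 3 was not the low embryo for every large part of it. The part of yolk sac or trophoblast tissue in the member values was not tested.

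The genes most like the mean scaled member profile were found by Pearson r with it over the 8 arrays, father group means removed. The 10 highest were *Ank1* (0.982), *DXBay18* (0.980), *Slc25a37* (0.976), *Gfi1b* (0.976), *Gm10768* (0.973), *Lin54* (0.972), *Nfe2* (0.970), *Gchfr* (0.966), *Cited4* (0.966) and *Gm5640* (0.962), and neighbours in this order, which differ only in the third decimal, were not tested against each other. *Ank1*, *Slc25a37*, *Gfi1b* and *Nfe2* are in the wider erythroid lists. *Ank1* encodes the ankyrin that fixes spectrin to the membrane, *Gfi1b* a repressor of erythroid and megakaryocytic cells, and *Nfe2* an activator that binds the globin control regions. Without HOM father replicate 3 the 10 values ranged from 0.649 (*Gchfr*) to 0.907 (*Nfe2*). Over 26453 probes well above background on all arrays the median r was 0.0754, and 15.8% had r above 0.5.

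By list, r above 0.5 was reached by 13 of 17 red cell membrane genes, 6 of 8 haem synthesis genes and 11 of 15 iron and enzyme genes. It was reached by 7 of 17 transcription factors, 4 of 10 signalling genes and 5 of 7 other globins. The medians were 0.735, 0.719 and 0.696 for the first 3 lists, 0.277 and 0.122 for the factors and signalling, and 0.594 for the globins. The 8 endothelial genes had a median of −0.564 and all lay below 0, from −0.763 to −0.246. Yolk sac endoderm genes had a median of 0.556 over 8 arrays and 0.0171 without HOM father replicate 3. Without that embryo the medians of the membrane, haem and iron lists were 0.537, 0.666 and 0.458, that of the other globins was −0.208, and that of the endothelial genes was −0.421.

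**Figure D5:**
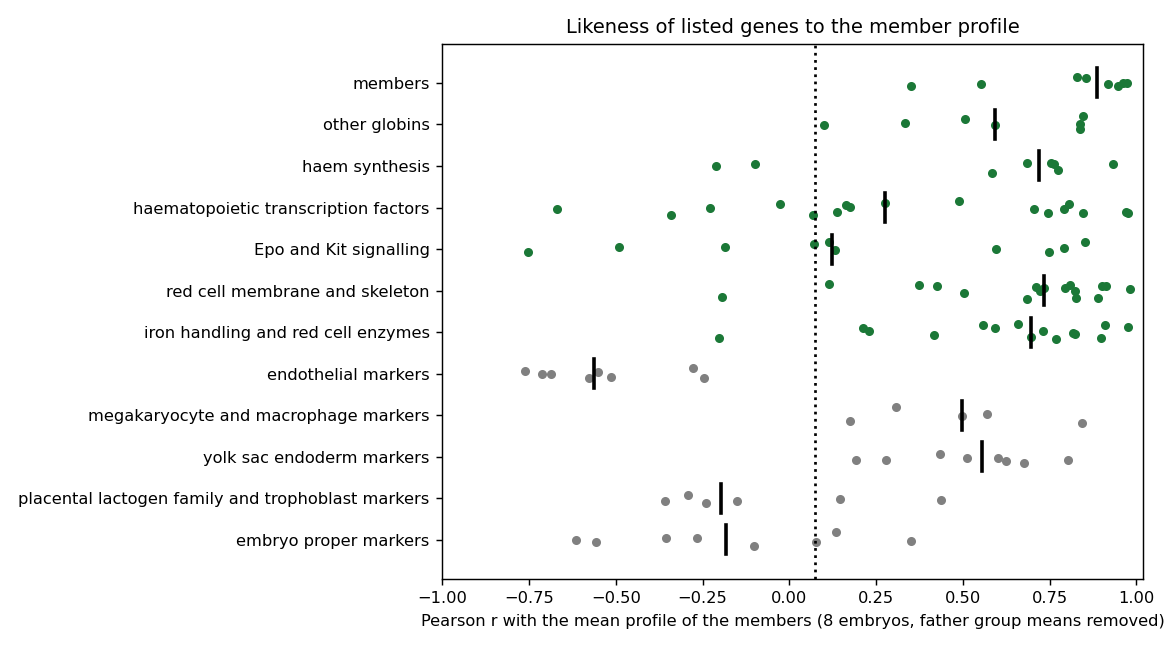
Pearson r of each listed gene (brightest tested probe) with the mean profile of the members over 8 embryos after removal of the father group means, by list, with a black line at the list median and a dotted line at the median of all probes well above background on all arrays (0.0754). The members contribute to their own profile. Red cell membrane, haem and iron genes lie mostly above 0.5, and all endothelial markers lie below 0.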

How the data were processed

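RNA of 8 whole E8.5 embryos (4 per father group) was measured on one-colour arrays from 0.2 µg of RNA each. The deposited intensity values are background-subtracted, spatially detrended signals that the authors made with Feature Extraction 11.0.1.1, with no scaling between arrays, and the deposited flags are other values of 0 or 1. The authors' series value table held the same intensities to within 0.497%. The array design refers to mouse build mm9.

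Of 59305 non-control spots, those with an outlier flag were left out. Log2 signals minus the 75th percentile of the array were averaged over the spots of a probe (55681 probes). Tested probes were those that on at least 4 of 8 arrays cleared both the background flag and the 20th percentile of signal (29718 probes, 53.4%). Names came from accessions matched to RefSeq (27235 probes), and no probe matched *Ahsp*, *Hbb-b1*, *Cd68* or *Prl2c2*. limma 3.58.1 in R 4.3.3 was used (lmFit, eBayes, two-sided, Benjamini-Hochberg over all tested probes), after tests on simulated data. The father comparison had no covariate, the sex comparison had father, and the interaction had both. Calls used the methods' limits (adjusted p below 0.01, at least 2-fold) and an adjusted p below 0.05.

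Named were all member probes, and up to 4 genes by father and 1 by sex from each list (on the brightest tested probe). The 10 genes most like the mean member profile were also named. Other list probes that passed, the remaining globins and *Gata2* were named after their values were seen. The spread and likeness without HOM father replicate 3 were also chosen after seeing the data. The division of the member pairs by *Hbb-y* and *Hbb-bh1* was not planned. Values of 2 listed genes are not reported here. Members and lists were chosen with earlier results of these data known. Embryos are separate animals, and the labels name no sire or litter. HOM father replicates 3 and 4 share the leading number of their identifier, as do HET father replicates 1 and 2. What it stands for is not stated, and it was tried as a random block. P-values measure the spread between these embryos, taken as independent. The paper describes the sires of both genotypes as brothers, and neither that pairing nor shared sires could be modelled. The number of arrays limits the precision. Alternatives were other scalings, background correction, filters, covariates, blocks and variance models, the authors' value table, and leaving out each array. Normexp correction (offset 50) used the median spot signal. None of the genes named by sex passed.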

Additional observations from a re-analysis of the deposited data

Results flagged for a closer look

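Among 142 groups of 4 embryos, for the member probes and the listed probes named here, 5 held 1 embryo far from the others of its group by Dixon's criterion, where chance gives about 7.1 (1 in 20 groups). *Hba-x* was at 6.93 in HOM father replicate 3, with the others of the group between 7.33 and 7.38. *Egfl7*, an endothelial gene, was at 4.74 in HOM father replicate 1, with the others between 5.02 and 5.08. *Ascl2*, a trophoblast regulator, was at 1.67 in HOM father replicate 2, with the others between −1.98 and −1.42. The dimmer probe of *Alas1* was at −1.39 in HET father replicate 2, with the others between −1.18 and −1.16. The *Cbfa2t3* probe that was higher with a HOM father was at −2.11 in HET father replicate 4, with the others between −2.36 and −2.33.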

How the results depend on the processing

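The counts of member probes past the rule with a 2-fold limit, by sex and by interaction were 0 under every alternative run. The count of member probes with an adjusted p below 0.05 by father was 0 as reported, 4 with median scaling, and 1 with quantile normalisation, with probes well above background on all 8 arrays, with sex as a covariate and with the intensity trend and robust variance. Leaving out 1 embryo gave 0 to 1, the probe being *Klf1* without HOM father replicate 2 or HET father replicate 4 and *Hba-x* without HOM father replicate 3. The 11 calls of the wider erythroid lists became 29 with median scaling, 2 without a filter on dim probes, 6 with the leading identifier number as a random block (consensus correlation 0.302), 2 with slide position as a block, and 5 to 17 when 1 embryo was left out. In that last range, 17 came without HOM father replicate 2, 5 without HET father replicate 4, 6 without HET father replicate 3 and 7 without HET father replicate 2. The share of all tested probes that passed was 21.0% as reported, 5.59% without a filter, 4.89% with slide position as a block and 42.7% with median scaling. With the replicate number as a block, 0 member probes and 3 wider probes passed. Same-numbered embryos did not deviate together (r = 0.189, −0.0861, −0.132 and 0.146), so the numbers were not taken as pairs. Both *Hbb-y* probes turned from 0.04 to −0.15 with median scaling, to −0.044 and −0.104 with slide position, to −0.068 and −0.104 without HOM father replicate 1, and to −0.020 and −0.032 without HOM father replicate 4, and leaving out 1 embryo at a time gave −0.068 to 0.148 and −0.104 to 0.172. *Hbb-b2* turned to −0.011 with median scaling. The other 7 member probes kept a negative difference under all 19 alternatives. The cause of these changes was not tested.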
